A study of Mus musculus with 6 samples.

Results

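Integrins are cell surface receptors made of 1 alpha and 1 beta subunit, which join the matrix outside a cell to the actin skeleton inside it. The alpha subunit largely sets the ligand, and a beta subunit can pair with several alpha subunits. In endothelial cells (EC), the cells that line blood vessels, integrins hold the cell to its basement membrane, and those that bind fibronectin and related proteins are known from growing vessels. The transcripts of 10 integrin subunits, 6 alpha (Itga1, Itga3, Itga5, Itga6, Itga8 and Itgav) and 4 beta (Itgb1, Itgb3, Itgb4 and Itgb5), were described in EC sorted from mouse lung. They were chosen by gene symbol, and all 10 were found among the 12623 genes of the deposited table.

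The samples were 6 libraries of lung EC from C57BL/6N mice, 3 from infant and 3 from young adult mice, with no transgene or treatment named for either group. According to the study's methods the infant mice were in the second postnatal week, an age at which lung vessels still grow, and the cells carried CD31 and CD34 and lacked PTPRC, LYVE1, PDPN and LY76. The age groups were set against each other to find genes tied to quiescence, the state in which EC neither divide nor sprout. Levels are RPKM, reads per kilobase of transcript corrected for library size, so that genes can be compared per length. Where 3 values are listed for a group, they are those of replicates 1, 2 and 3 in that order.

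Of the 12623 genes, 11402 to 11860 reached an RPKM of 1 in the infant and 10694 to 10979 in the young adult libraries. The read depth of each library is unknown, since the methods give only an average transcriptome coverage. Globin transcripts made up 3.41% to 23.5% of the RPKM of infant and 0.307% to 0.487% of that of young adult libraries. The 14 endothelial markers were all present, with summed levels of 4217 to 6211 RPKM in infant and 6414 to 7299 RPKM in young adult libraries. Fibroblast markers (8 genes, 7 called lower) summed to 315.9 to 1249 RPKM in infant and 8.70 to 20.6 RPKM in young adult libraries, and mural cell markers (11 genes, 10 called lower) to 81.8 to 256.3 and 13.2 to 19.2 RPKM. In both lists infant replicate 2 was the lowest infant library. Epithelial markers (13 genes, 5 called lower) summed to 6550 to 11430 and 1828 to 8415 RPKM. Leukocyte markers (13 genes, 6 called lower) summed to 339.6 to 537.1 and 141.5 to 564.2 RPKM. The Y-linked gene Ddx3y measured 16.5 to 21.9 RPKM in infant libraries and was listed at 0 in all young adult libraries, although the methods name female mice, so that a difference of sex and one of age cannot be told apart here. In sorted bulk cells, fewer cells of a type and less RNA per cell cannot be told apart either.

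A gene was called when its Benjamini-Hochberg adjusted p over 12458 tested genes was under 0.05 in limma and it differed over 1.75-fold on the scale of log2(RPKM + 1). Of the 10 integrin subunits, Itga1 and Itga6 were called higher and Itga8 was called lower in young adult EC, and 7 were not called. In the background of all tested genes, 11.4% were called, 3.33% higher and 8.1% lower. With quantile normalization the called genes divided into 532 higher and 611 lower instead of 415 and 1009, and the median log2 fold change of all tested genes was 0.04 instead of -0.07, with Itga1 and Itga6 still called higher and Itga8 lower. The median log2 fold change of the 10 subunits was 0.28. The groups did not overlap for 4 of the 10 subunits, while the background of all tested genes without overlap was 43.4%.

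**Figure D1:**
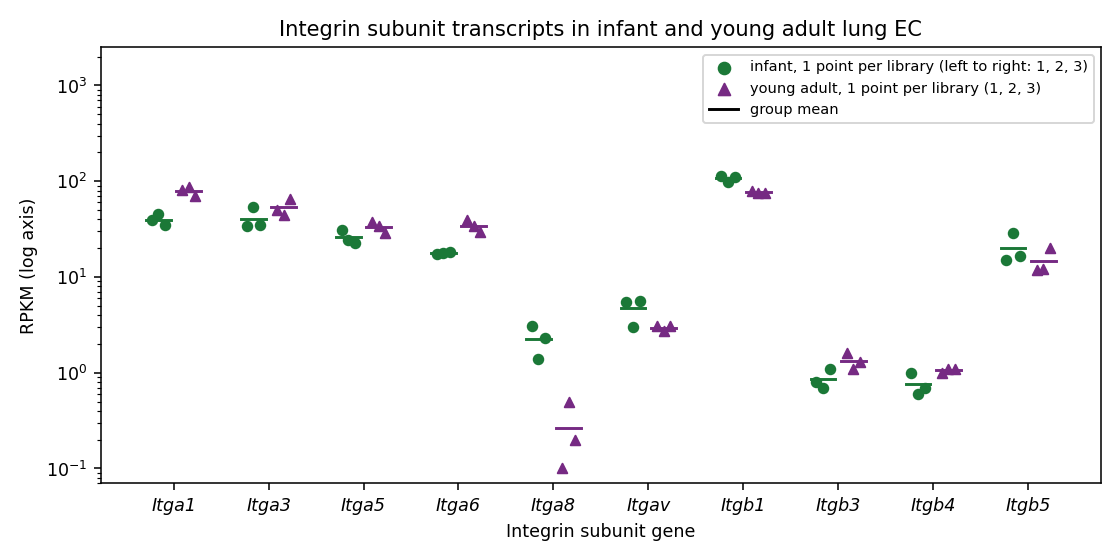
RPKM of the 10 integrin subunit genes in each library on a log axis, with infant libraries as circles, young adult libraries as triangles and a line at each group mean (n = 3). The points of the groups are apart for Itga1, Itga6, Itga8 and Itgb1, and the highest mean is that of Itgb1 in infant libraries and of Itga1 in young adult libraries, where it overlaps Itgb1.

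The DNA before the start of 3 of these genes is shown because their levels separated the age groups: Itga1, which rose, and Itga8 and Itgb1, which were lower. The stretches are from RefSeq on GRCm38.p6, which shares the coordinates of mm10, and each ends just before the annotated gene. CpG dinucleotides, the sites of DNA methylation, are in capitals.

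Itga1, chr13:115101965-115102214, minus strand: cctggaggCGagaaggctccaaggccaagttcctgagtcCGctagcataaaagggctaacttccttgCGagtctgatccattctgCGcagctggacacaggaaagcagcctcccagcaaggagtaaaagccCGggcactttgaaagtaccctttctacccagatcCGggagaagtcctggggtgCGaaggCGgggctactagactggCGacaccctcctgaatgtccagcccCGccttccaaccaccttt
Itga8, chr2:12301986-12302194, minus strand: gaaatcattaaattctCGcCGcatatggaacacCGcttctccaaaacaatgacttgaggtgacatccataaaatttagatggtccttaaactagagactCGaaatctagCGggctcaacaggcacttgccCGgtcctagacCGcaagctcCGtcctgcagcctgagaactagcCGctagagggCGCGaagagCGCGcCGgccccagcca
Itgb1, chr8:128685404-128685653, plus strand: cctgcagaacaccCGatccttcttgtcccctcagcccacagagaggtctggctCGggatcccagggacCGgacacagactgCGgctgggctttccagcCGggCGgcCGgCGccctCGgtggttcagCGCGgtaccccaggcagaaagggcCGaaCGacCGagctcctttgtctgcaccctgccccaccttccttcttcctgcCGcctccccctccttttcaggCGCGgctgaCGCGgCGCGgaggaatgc

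The Itga1 stretch held 10 CpG in 250 bases and the Itgb1 stretch 21, against a median of 6 in the same window over 32851 promoters. The Itga8 stretch held 14 in 209 bases, against a median of 4. The share of promoters with fewer CpG was 62.2% for Itga1, 83.7% for Itgb1 and 78.3% for Itga8. Of 4 motifs searched on both strands of the 250 bases before each start, the GC box GGGCGG was found 1 time before Itgb1 and 0 times before Itga1 and Itga8. GGGCGG stood in 32.7% of all promoters. The ETS motif CCGGAAG (6.91% of promoters), the AP-1 motif TGANTCA (6.75%) and the TATA box TATAAA (12.4%) were found before none of the 3. A RefSeq promoter lying before the annotated gene was found for 6 of the 10 subunits, and not for Itga6, Itgav, Itgb3 and Itgb4.

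Itga1 encodes an alpha chain that pairs with beta 1 to form a collagen receptor, which binds basement membrane collagen IV as well as fibrillar collagen. The gene lies on chromosome 13 (114958079 to 115101964, minus strand, mm10), and its transcript NM_001033228 has 29 exons in the matched GENCODE model. Itga1 measured 39.0, 45.0 and 34.9 RPKM among infant against 80.8, 86.6 and 69.5 RPKM among young adult libraries. Every young adult library lay above every infant library. The mean rose 1.99-fold, with 39.6 ± 5.08 RPKM in the infant and 79.0 ± 8.70 RPKM in the young adult group (SD, n = 3 each). On the log2(RPKM + 1) scale the change was 0.98 ± 0.13 (SE), with a limma adjusted p of 0.00339. Itga1 was called under 17 alternative settings, 6 of them without 1 library, with changes between 0.87 and 1.07. It was not called when limma's treat tested against the fold threshold itself, a stricter test that called 0 of the 10 subunits, 1 of which had an unadjusted p under 0.05. Endothelial marker sums were 4507, 6211 and 4217 RPKM among infant against 6414, 6833 and 7299 RPKM among young adult libraries. Among infant libraries these sums had the same order as Itga1, and among young adult libraries the order differed. The part of the endothelial share in the rise of Itga1 was not tested. Gm49395 overlaps an exon of Itga1 on the same strand. Pelo, a ribosome rescue gene within the Itga1 locus on the same strand, measured 6.90 ± 1.35 and 11.9 ± 1.04 RPKM, a log2 difference of 0.72 that was under the fold threshold (limma adjusted p 0.0114).

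Itga6 encodes the alpha chain of the laminin receptors that pair with beta 1 or beta 4. It lies on chromosome 2 (71786886 to 71858427, plus strand, transcript NM_008397, 26 exons). Itga6 measured 17.4, 17.9 and 18.4 RPKM among infant against 39.3, 33.9 and 29.6 RPKM among young adult libraries. The infant libraries were nearly equal, with a coefficient of variation of 2.79%, and all lay below the young adult libraries, which spread by 14.2%. The mean rose from 17.9 ± 0.500 to 34.3 ± 4.86 RPKM (SD), which is 1.91 times the infant level. The log2 change was 0.89 ± 0.12 (SE, limma adjusted p 0.00312). The adjusted p of Itga6 stayed at or under 0.0222 in these 17 alternatives. The change lay near the fold threshold of 0.81 on the log2 scale and was below it without young adult replicate 1 (0.79), with a pseudocount of 5 (0.77) and with globin genes left out of the scaling (0.79), the last chosen after seeing the data.

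Itga8 encodes the alpha chain of the nephronectin receptor, a subunit known from fibroblasts and smooth muscle. It lies on chromosome 2 (12106632 to 12301985, minus strand, transcript NM_001001309, 30 exons). Itga8 measured 3.1, 1.4 and 2.3 RPKM among infant against 0.1, 0.5 and 0.2 RPKM among young adult libraries. All young adult libraries were below all infant libraries, and infant replicate 2 was the lowest of the infant libraries. The mean fell from 2.27 ± 0.851 to 0.267 ± 0.208 RPKM, with a log2 change of -1.35 ± 0.22 (SE, limma adjusted p 0.00683). The young adult values are a few rounding steps of 0.1 RPKM above 0, so the size of this fall depends on the pseudocount and was -2.77 at a pseudocount of 0.1 and -0.46 at a pseudocount of 5. Fibroblast markers summed to 1249, 315.9 and 863.7 RPKM in infant replicates 1 to 3 and thus had the same order as Itga8. Mural markers summed to 251.5, 81.8 and 256.3 RPKM in these libraries, also lowest in replicate 2 but otherwise in another order. The part of either cell type in the fall of Itga8 was not tested. E030013I19Rik overlaps an exon of Itga8 on the opposite strand, and a strand setting for the counting was not given in the sources used here.

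Itgb1 encodes the beta chain shared by most matrix receptors of the family. It lies on chromosome 8 (128685654 to 128733579, plus strand, transcript NM_010578, 16 exons). Itgb1 measured 112.7, 97.8 and 112.0 RPKM among infant against 78.9, 75.7 and 75.2 RPKM among young adult libraries. Every infant library was above every young adult library. The mean was 107.5 ± 8.41 RPKM in infant and 76.6 ± 2.01 RPKM in young adult EC, a ratio of 0.713. The log2 difference was -0.48 ± 0.10 (SE, limma adjusted p 0.0168), under the fold threshold, so Itgb1 was not called. When single libraries were left out, the adjusted p lay between 0.055 and 0.0732 in 5 of 6 fits and was 0.00373 without infant replicate 2. Of the infant libraries, replicate 2 had the lowest level of Itgb1 and the lowest fibroblast and mural marker sums. The part of those cells was not tested.

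Itga3, Itga5, Itgav, Itgb3, Itgb4 and Itgb5 had adjusted p above 0.1 and overlapping groups. Itga3, the alpha chain of a laminin receptor that is abundant in epithelium, measured 33.9, 53.2 and 35.0 RPKM among infant against 50.6, 44.8 and 65.2 RPKM among young adult libraries (log2 difference 0.40, 95% interval -0.07 to 0.87). Its highest libraries were infant replicate 2 and young adult replicate 3, which also had the highest epithelial marker sum of their group, at 11430 and 8415 RPKM, and the highest endothelial sum, at 6211 and 7299 RPKM. Among infant libraries Itga3 had the order of the epithelial sums, with replicate 3 above replicate 1, but not that of the endothelial sums. Among young adult libraries the order differed from both, since replicate 1 was above replicate 2 in Itga3 and below it in both sums. The part of epithelial transcripts in Itga3 was not tested. Without infant replicate 2 the log2 difference of Itga3 was 0.60 (limma adjusted p 0.0207), still under the fold threshold.

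Itga5, the alpha chain of the fibronectin receptor, measured 30.8, 24.5 and 22.9 RPKM among infant against 37.1, 34.4 and 29.0 RPKM among young adult libraries. Only infant replicate 1 reached into the range of the young adult libraries (log2 difference 0.35, 95% interval 0.03 to 0.68, limma adjusted p 0.103). Itgav, the alpha chain of the vitronectin receptors that also activate latent TGFβ, measured 5.5, 3.0 and 5.6 RPKM among infant against 3.1, 2.7 and 3.1 RPKM among young adult libraries. Infant replicate 2 lay at the young adult level, and without it the log2 difference of Itgav was -0.73 instead of -0.49 (limma adjusted p 0.00217 instead of 0.105). This library also had the lowest fibroblast and mural marker sums of its group, and the part of those cells was not tested.

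Of Itgb3 and Itgb5, whose proteins are among the partners of alpha v, Itgb5 was the more abundant and Itgb3 was low, near 1 RPKM. Itgb5 measured 15.1, 28.5 and 16.6 RPKM among infant against 11.9, 12.0 and 20.3 RPKM among young adult libraries, highest in the same libraries as Itga3 (log2 difference -0.41, 95% interval -1.04 to 0.22). Epithelial marker sums had the same order as Itgb5 in both groups, at 6550, 11430 and 8525 RPKM and 1828, 4844 and 8415 RPKM. Endothelial marker sums had its order only among young adult libraries. The part of epithelial transcripts in Itgb5 was not tested. The other Itgb5 transcript row gave 14.4 to 26.9 and 11.2 to 19.0 RPKM. Itgb3, which also forms the platelet fibrinogen receptor, measured 0.8, 0.7 and 1.1 RPKM among infant against 1.6, 1.1 and 1.3 RPKM among young adult libraries. The groups of Itgb3 touched at 1.1 RPKM (log2 difference 0.32, 95% interval -0.02 to 0.67). Itgb4, the beta chain of the hemidesmosome receptor of epithelium, measured 1.0, 0.6 and 0.7 RPKM among infant against 1.0, 1.1 and 1.1 RPKM among young adult libraries, with 2 transcript rows that differed in young adult replicate 2 by 1 rounding step. Both genes differed by a few rounding steps and were not called. With quantile normalization the log2 difference was 0.68 for Itgb3 and 0.63 for Itgb4 (limma adjusted p 0.0174 and 0.0184), under the fold threshold. B230344G16Rik overlaps an exon of Itgb4 on the opposite strand.

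**Figure D2:**
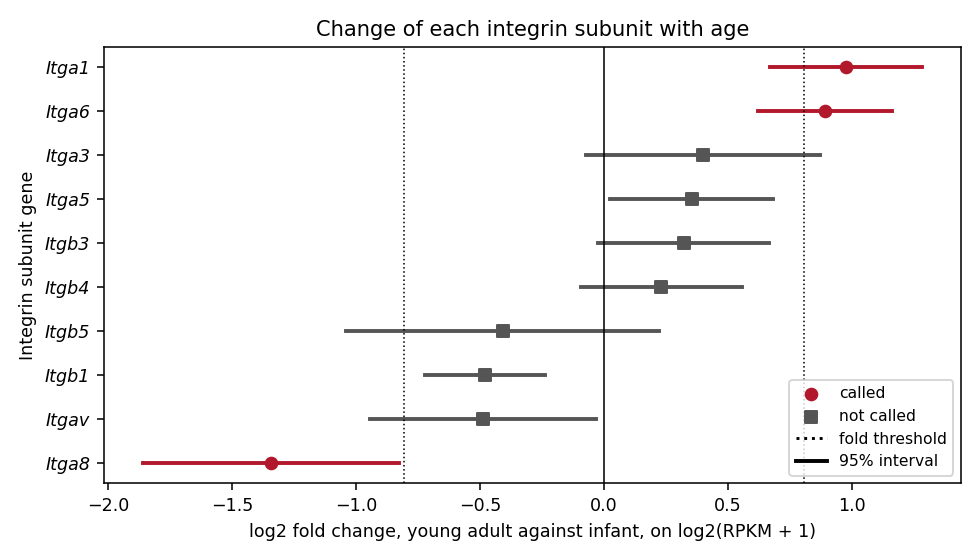
Fitted log2 fold change of each integrin subunit, young adult against infant, on the log2(RPKM + 1) scale, with 95% intervals from limma. Dotted lines mark the fold threshold, and circles mark the called genes Itga1 (0.98), Itga6 (0.89) and Itga8 (-1.35).

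The order of the levels changed at the top. In infant EC Itgb1 was highest at 107.5 RPKM, far above Itga3 (40.7) and Itga1 (39.6), whose ranges overlapped. In young adult EC Itga1 (79.0) and Itgb1 (76.6) overlapped, ahead of Itga3 (53.5). Itga6 and Itga5 overlapped in young adult EC at 34.3 and 33.5 RPKM, whereas in infant EC every Itga5 library was above every Itga6 library. Itga8 ranked above Itgb3 and Itgb4 in infant EC and below both, without overlap, in young adult EC.

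Summed over the 6 alpha subunits, levels were 129.7, 145.0 and 119.1 RPKM among infant against 211.0, 202.9 and 196.6 RPKM among young adult libraries. Summed over the 4 beta subunits they were 129.6, 127.6 and 130.4 RPKM and 93.4, 89.9 and 97.9 RPKM. The alpha sum was therefore higher and the beta sum lower in each young adult library. The summed alpha level per Itgb1 was 1.15, 1.48 and 1.06 in infant and 2.67, 2.68 and 2.61 in young adult libraries, a ratio that does not depend on how libraries are scaled. The infant library with the highest ratio, 1.48, also had the lowest fibroblast and mural marker sums of the infant libraries. The part of those cells in the ratio was not tested. With Itga2, Itga4 and Itga9 added to the alpha subunits, infant libraries averaged 1.51 ± 0.207 and young adult libraries 2.90 ± 0.0327 (SD, n = 3 each). These sums were formed after the values were known and were not tested.

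**Figure D3:**
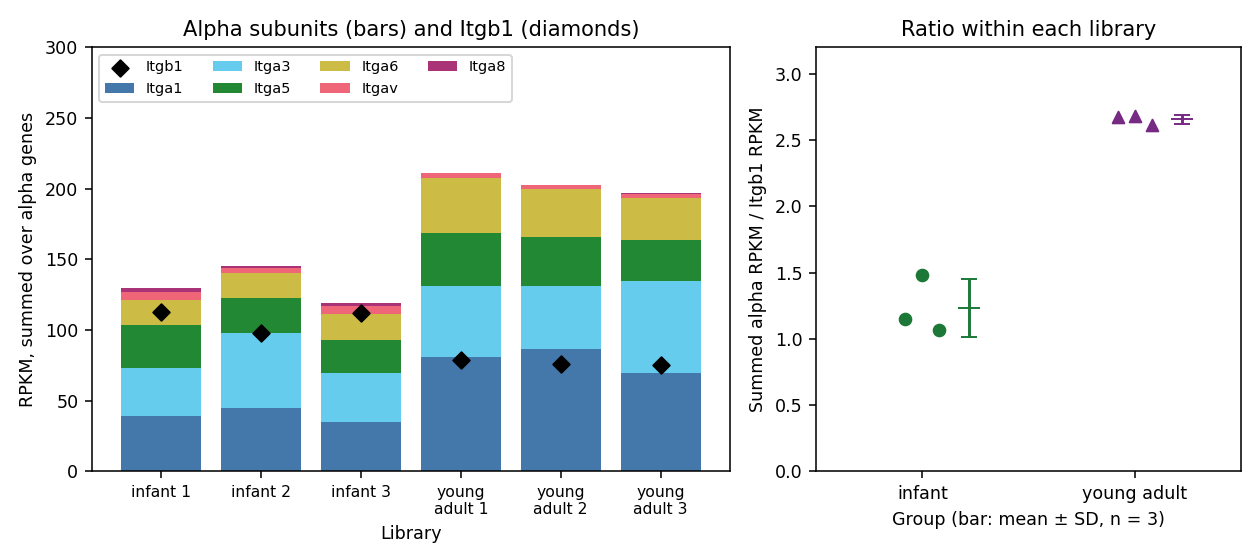
Left, RPKM of the 6 alpha subunits stacked for each library, with Itgb1 as a diamond. Right, the summed alpha RPKM divided by the Itgb1 RPKM in each library with mean and SD (n = 3), which lay between 1.06 and 1.48 in infant and between 2.61 and 2.68 in young adult libraries.

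Within the alpha sum, Itga1 made up 30.1% ± 0.868 of infant against 38.8% ± 3.69 of young adult transcripts (SD, n = 3 each), without overlap. The share of Itga8 was 1.76% ± 0.727 and 0.132% ± 0.103, and that of Itgav was 3.67% ± 1.41 and 1.46% ± 0.123, also without overlap. The shares of Itga3, Itga5 and Itga6 overlapped between the groups. Itgb1 made up 83.2% ± 5.67 of the beta sum in infant and 81.8% ± 4.35 in young adult EC, with overlap. The shares of Itgb3 (0.670% ± 0.154 and 1.42% ± 0.258) and Itgb4 (0.593% ± 0.158 and 1.14% ± 0.0777) were higher in each young adult library.

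Ratios of subunits within a library were compared for 3 pairs with exact two-sided permutation tests, whose smallest p with 3 against 3 libraries is 0.1, so that none could pass 0.05. The log2 ratio of Itga5 to Itga6, the fibronectin against the laminin receptor chain, was 0.82, 0.45 and 0.32 in infant and -0.08, 0.02 and -0.03 in young adult replicates 1 to 3. All infant libraries were above all young adult libraries, a difference of -0.56 (exact permutation p 0.1, adjusted over the 3 ratios 0.15). The log2 ratio of Itgb4 to Itgb1, the partners of alpha 6, averaged -7.16 ± 0.30 among infant and -6.17 ± 0.12 among young adult libraries, again without overlap (exact permutation p 0.1, adjusted 0.15). It rests on Itgb4 values near 1 RPKM. The log2 ratio of Itgb3 to Itgb5 was -4.50 ± 0.75 and -3.44 ± 0.54 (exact permutation p 0.2, adjusted 0.2), and the difference of 1.06 was 0.64 without infant replicate 2.

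The genes with the most similar profiles were taken from 6983 other genes with a mean of at least 5 RPKM (6984 for Itga8), by Euclidean distance of mean-centred log2(RPKM + 1) over the 6 libraries. For Itga1 they included Tmem63a, which encodes an ion channel (distance 0.14), and the incretin receptor gene Glp1r (0.17). For Itga6 they were Tm6sf1 (0.12), the vesicle transport gene Sft2d2 (0.13) and Stt3b, a catalytic subunit of N-glycosylation (0.16). For Itga8 they were the interleukin receptor gene Il1rl2, the cell cycle regulator gene Rgcc and the imprinted gene Ndn, all at a larger distance of 0.36 to 0.37. The difference between the age groups enters these distances.

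Of the 17 remaining integrin subunit genes listed, 8 were in the table. 2 were called lower and 0 higher, with a median log2 fold change of -0.58. Of all tested genes 8.1% were called lower and 3.33% higher. Itga4, the alpha chain of a receptor for VCAM1 and fibronectin known from leukocytes, measured 5.5, 4.3 and 5.4 RPKM among infant against 0.8, 0.7 and 1.3 RPKM among young adult libraries. The groups were well apart (log2 change -1.66 ± 0.15, limma adjusted p 0.00104). It was named after its values were seen, as 1 of the 2 called genes. Itga9, the alpha chain of a tenascin C receptor, measured 7.4, 1.7 and 9.2 RPKM among infant against 1.0, 1.2 and 0.9 RPKM among young adult libraries (-1.60 ± 0.44, limma adjusted p 0.0358). It was low in infant replicate 2, and it was called in 1 of the 6 fits that left out a library, the one without infant replicate 2. It was not called with replicate number as a block or with quantile normalization. Itga9 was thus lowest in the infant library with the lowest fibroblast and mural marker sums, and the part of those cells was not tested.

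Itga2, another collagen receptor chain that pairs with beta 1, was not called. It measured 19.6, 19.7 and 17.7 RPKM among infant against 17.8, 16.4 and 16.7 RPKM among young adult libraries (log2 difference -0.15, 95% interval -0.36 to 0.06). Whether the changes of Itga1 and Itga2 differed was not tested. Itgb2, the beta chain of the leukocyte integrins, measured 6.2, 7.9 and 9.9 RPKM among infant against 1.0, 3.7 and 8.7 RPKM among young adult libraries (log2 difference -0.98, limma adjusted p 0.181), and was called lower, at -1.53, only in the fit without young adult replicate 3. Among the young adult libraries leukocyte markers had the same order as Itgb2, with sums of 141.5, 313.8 and 564.2 RPKM. Among the infant libraries the order differed, with sums of 339.6, 537.1 and 501.6 RPKM.

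Genes of integrin ligands were mostly lower in young adult EC. Of 36 measured genes, 25 were called lower, 1 was called higher and 10 were not called, with a median log2 fold change of -1.32. The share called was 72.2%, against 11.4% of all tested genes (3.33% higher and 8.1% lower). The laminin genes gave 5 of 9 called lower, the collagen genes 7 of 8, and fibronectin and the other ligands 13 of 19 lower and 1 higher. The collagen genes Col3a1 (-6.00), Col1a1 (-5.87) and Col1a2 (-5.42) and the tenascin C gene Tnc (-5.41) fell most, although Tnc was called in only 2 of the 6 fits that left out a library. These 3 collagen genes are also on the fibroblast marker list, whose levels are given above. Col4a1, which encodes the basement membrane collagen bound by alpha 1, measured 201.8, 184.8 and 159.8 RPKM among infant against 64.9, 66.3 and 75.4 RPKM among young adult libraries. It fell while Itga1 rose (-1.39 ± 0.13, limma adjusted p 0.00102), and infant replicate 2 lay within the range of the other infant libraries. Of the 25 ligand genes called lower, 18, Tnc among them, had their lowest infant level in replicate 2. That library had the lowest fibroblast and mural marker sums of the infant libraries, and the part of those cells was not tested. The matching share over all genes called lower is not given here, so this count is not shown to be particular to ligand genes. Mfge8, whose protein is an alpha v ligand, measured 158.0 ± 15.8 and 130.0 ± 9.88 RPKM (SD, n = 3 each) and was not called (-0.28, limma adjusted p 0.136). The gene called higher was Vwf, which encodes von Willebrand factor, a product of EC and platelets. Vwf measured 33.8, 29.4 and 28.4 RPKM among infant against 157.1, 128.1 and 103.8 RPKM among young adult libraries, a ratio of means of 4.25 and a log2 change of 2.04 ± 0.16 (limma adjusted p 0.000642).

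Genes of proteins that bind integrin tails, link them to actin or act beside them in the membrane showed no common direction. Of 36 measured genes, 2 were called higher, 4 lower and 30 were not called, with a median of 0.00. The share called was 16.7%, against 11.4% of all tested genes (3.33% higher and 8.1% lower). Membrane partners moved in both directions. Cd9, a tetraspanin gene, rose from 300.8 ± 75.2 to 755.6 ± 30.8 RPKM (1.35 ± 0.20, limma adjusted p 0.00439), and Slc3a2, which encodes the CD98 heavy chain that binds beta 1 tails, from 31.4 ± 6.65 to 104.3 ± 7.47 RPKM (1.72 ± 0.15, limma adjusted p 0.000998). The tetraspanin genes Cd63 and Cd81 fell by 1.90 and 1.52 on the log2 scale (limma adjusted p 0.0101 and 0.0135), as did Flna, which encodes an actin crosslinker that binds beta tails (-1.32, 0.0241), and the focal adhesion gene Tns3 (-0.84, 0.0182). Of the infant libraries, replicate 2 had the lowest levels of Cd63, Cd81 and Flna, as it had of the fibroblast markers, and the part of those cells was not tested. Cd9, Slc3a2 and Cd63 were called in each fit without 1 library, whereas Cd81, Flna and Tns3 were not called without young adult replicate 1 or without young adult replicate 2, which left 3 called genes. In all, Cd81 was called in 4, Tns3 in 2 and Flna in 1 of the 6 fits that left out a library. Lims2, which encodes a partner of integrin-linked kinase, measured 89.5, 200.0 and 97.4 RPKM among infant against 199.1, 229.1 and 237.3 RPKM among young adult libraries, and was not called (0.87, limma adjusted p 0.0602), other than in the fit without infant replicate 2 (1.24).

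**Figure D4:**
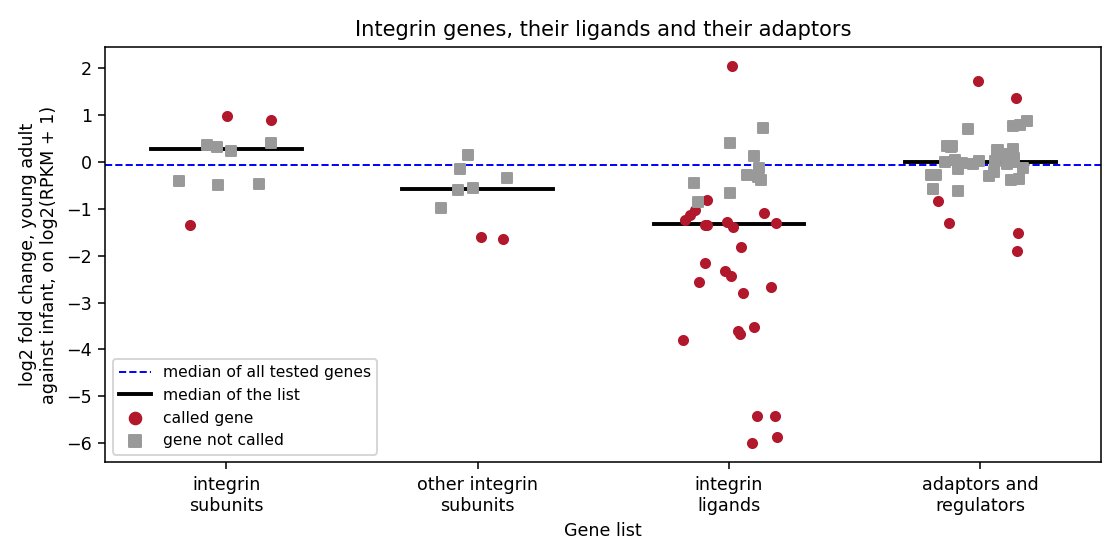
Log2 fold change, young adult against infant, of the 10 integrin subunits, the 8 other integrin subunits, the 36 ligand genes and the 36 adaptor and regulator genes, with list medians of 0.28, -0.58, -1.32 and 0.00 as black lines. The dashed line is the median of all tested genes (-0.07), circles are called genes and squares are genes not called.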

How the data were processed

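RNA of FACS-sorted lung EC from 3 infant and 3 young adult C57BL/6N mouse samples was sequenced. Per the labels and methods, the authors aligned paired-end reads to mm10 with STAR and used RefSeq gene models. The deposited values are RPKM rounded to 1 decimal, and the program that made them is not given in the sources used here. Whole reads could not be recovered, so depth is unknown and no count test was run. The table held 17241 transcript rows of 12623 genes. For 2842 genes with several rows, the row with the highest mean was used, and 24 symbols altered to dates were restored by accession.

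Values were analysed as log2(RPKM + 1) with limma 3.58.1 (R 4.3.3, moderated with an intensity trend) over 12458 genes with at least 1 RPKM in at least 1 library. Fold changes on this scale understate changes of low genes. Ratios were tested with exact permutation tests (scipy 1.17.1). All 10 subunits were named, with the 3 genes of nearest profile for each called subunit, and list genes by largest change or highest mean among those with a mean of at least 5 RPKM. One gene that this rule names is not reported here. Members and lists were chosen with earlier results of these data known. Whether replicates were separate animals is not stated, so p-values measure only the spread between these samples. The limma fit was tested on simulated data with changes placed only in genes of higher level, so changes of low genes were not covered.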

Additional observations from a re-analysis of the deposited data

How the results depend on the processing

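With treat set apart, Itga1 was called under 17 alternatives, Itga8 under 16 of them and Itga6 under 14, and none of the 10 subunits changed direction. The count of called subunits was 3, and 1 with a pseudocount of 5 (Itga1), 2 to 3 without 1 library, and 0 when limma's treat tested against the fold threshold itself, where 1 of 10 had an unadjusted p under 0.05. With globin genes left out of the scaling, chosen after seeing the data, 2 were called. The count of other subunits called was 2, and 0 with a pseudocount of 5 (2 of 8 with an unadjusted p under 0.05 in limma), 1 with quantile normalization, 1 with treat, and 1 to 3 without 1 library. The 26 called ligand genes became 8 with treat. The 6 called adaptor genes became 10 without a fold threshold, 1 with treat, and 3 to 9 without 1 library, 3 without young adult replicate 1 or 2. Over all genes 1424 were called, 578 with a pseudocount of 5, 1957 with 0.1, 176 with treat, 3176 without a fold threshold, and 842 to 1874 without 1 library, lowest without young adult replicate 1. The cause of these shifts was not tested. Same-numbered replicates did not deviate together (correlations 0.03, -0.11 and -0.02), and with the replicate number as a block 3 subunits, 1 other subunit, 24 ligand and 6 adaptor genes were called. RPKM rounded to 0.1 limits Itga8, Itgb3 and Itgb4.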
